A study of Mus musculus with 4 samples.

Results

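The 8 genes described here encode the muscarinic acetylcholine receptors M1 to M5 (Chrm1 to Chrm5) and the tachykinin receptors NK1 to NK3 (Tacr1 to Tacr3). They were taken by symbol from the 23185 probe sets with a gene name, and each of the 8 had 1 probe set. RNA came from green, not red, cells that flow cytometry isolated from the lungs of adult Acta2-hrGFP;Cspg4-DsRED mice, a double transgenic line shared by every group. The Acta2 promoter drives the green reporter in smooth muscle and other contractile cells. The Cspg4 promoter drives the red reporter, and Cspg4 is known from pericytes and vascular muscle. The diet experiment set VAS mice, on normal vitamin A-sufficient food with 15 IU per gram, beside VAD mice, on deficient food with less than 0.1 IU per gram. The diet label gives 3 days for VAD, and 1 sentence of the protocol gives 5 days. In the antagonist experiment, both groups ate powdered vitamin A-sufficient food for 3 days. It was mixed with corn oil for CTR and with BMS, a pan-retinoic acid receptor antagonist, at 5 mcg per gram for BMS. Each group is 1 array made from the pooled cells of 3 mice, so there is no spread between mice, and "higher" and "lower" describe arrays. The comparisons ask how the receptors' RNA stood after dietary loss of vitamin A and after blockade of its nuclear receptors.

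Acetylcholine from parasympathetic nerves contracts airways chiefly through M3, which couples to Gq and phospholipase C. M2 is the more abundant muscarinic receptor of airway muscle, couples to Gi and opposes the relaxation that cyclic AMP brings. On nerve endings M2 also restrains further acetylcholine release. Tachykinins are peptides of sensory nerves: substance P acts mainly on NK1, neurokinin A on NK2, which contracts airway muscle, and neurokinin B on NK3. All 3 tachykinin receptors couple mainly to Gq.

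Values are RMA expression values on the log2 scale, on which 1 unit is a 2-fold difference, and the arrays' medians over all probe sets lay between 5.97 and 6.02. A gene counted as past the filter on low values when its highest value reached 6.05, the median of all named values, as 12395 genes (53.5%) did. A level is compared here only between arrays of 1 gene, since probe sets differ in how strongly they bind. All 11 smooth muscle markers were past the filter on every array, Acta2 at 11.96, 12.12, 11.98 and 11.95 in VAS, VAD, CTR and BMS. The control arrays were further apart than the arrays of either experiment, with an SD of the differences across genes of 0.38 for CTR minus VAS, 0.27 for VAD minus VAS and 0.31 for BMS minus CTR.

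Of the 8 receptors, Chrm2 and Tacr2 were past the filter on all 4 arrays, and both were lower in VAD and in BMS. Chrm1 passed on BMS alone, and Chrm3, Chrm4, Chrm5, Tacr1 and Tacr3 were below the filter on all 4 arrays. The stretches before the starts of the genes whose arrays separated are shown from RefSeq on GRCm38.p6, since both differed in the same direction. Both are on the plus strand, 5′ to 3′, in lower case with CG dinucleotides in capitals.

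Chrm2: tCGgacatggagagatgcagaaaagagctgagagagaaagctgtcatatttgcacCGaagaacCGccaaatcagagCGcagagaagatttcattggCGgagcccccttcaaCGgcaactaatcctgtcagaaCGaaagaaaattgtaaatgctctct
Tacr2: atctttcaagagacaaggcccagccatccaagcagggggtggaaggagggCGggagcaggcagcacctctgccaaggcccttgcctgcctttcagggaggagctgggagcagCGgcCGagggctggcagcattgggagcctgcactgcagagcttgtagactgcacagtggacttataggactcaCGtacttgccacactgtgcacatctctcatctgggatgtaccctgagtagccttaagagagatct

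The Chrm2 stretch is chr6:36387834-36387990, which is 157 bases ending just before the first annotated start of the gene. The Tacr2 stretch is chr10:62252188-62252437, the 250 bases before its start. They hold 7 and 4 CG dinucleotides. Over the full 250 bases before the listed start, Chrm2 had 12 CG dinucleotides and Tacr2 had 4, beside a median of 6 over 32851 promoters. The windows of 7 of the 8 receptors were searched on both strands for AGGTCA, the half-site that nuclear receptors read, for its direct repeats with 1, 2 or 5 bases between, and for the CArG box of the muscle factor SRF. AGGTCA was found before Chrm5 alone, from position -62 to -57 relative to its start, while 14.0% of all promoters hold it. No direct repeat and no CArG box was found before any of the 7. Of all promoters, 1.47% hold a CArG box, and 0.0335%, 0.00913% and 0.00913% hold the repeats with 1, 2 and 5 bases between. With shares that low, finding none before 7 genes says nothing about these receptors. The search took exact letters only, so variant half-sites were not counted. A match is a description of letters and not a binding site.

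Chrm2 (Entrez gene 243764) stood at 10.62 in VAS, 9.37 in VAD, 10.32 in CTR and 9.54 in BMS. VAD and BMS were both low and the control arrays VAS and CTR both high, and the values did not overlap. That order was shared by 11.6% of the genes past the filter, and 14.6% had the opposite order. The difference of VAD minus VAS was -1.25, a 2.37-fold lower value, and that of BMS minus CTR was -0.78, a 1.71-fold lower value. CTR minus VAS was -0.30, smaller than either. Against the other experiment's control, VAD minus CTR was -0.95 and BMS minus VAS -1.08. Among the 12395 genes past the filter, Chrm2 was the 26th lowest in VAD minus VAS and the 92nd lowest in BMS minus CTR. In bulk RNA of sorted cells, fewer cells with a transcript and less transcript per cell cannot be told apart.

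Tacr2 (Entrez gene 21337), the neurokinin A receptor, stood at 7.57 in VAS, 6.86 in VAD, 7.71 in CTR and 6.96 in BMS. Here too both control arrays were above VAD and BMS, with no overlap, an order that 11.6% of the genes past the filter had. VAD minus VAS was -0.72, a 1.64-fold lower value, and BMS minus CTR was -0.75, a 1.69-fold lower value. The controls differed by 0.14, with CTR the higher. Against the other control, VAD minus CTR was -0.85 and BMS minus VAS -0.62. Tacr2 was the 151st lowest gene in VAD minus VAS and the 102nd lowest in BMS minus CTR. Its differences in the 2 experiments were nearly equal, whereas Chrm2 differed more in the diet experiment.

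**Figure D1:**
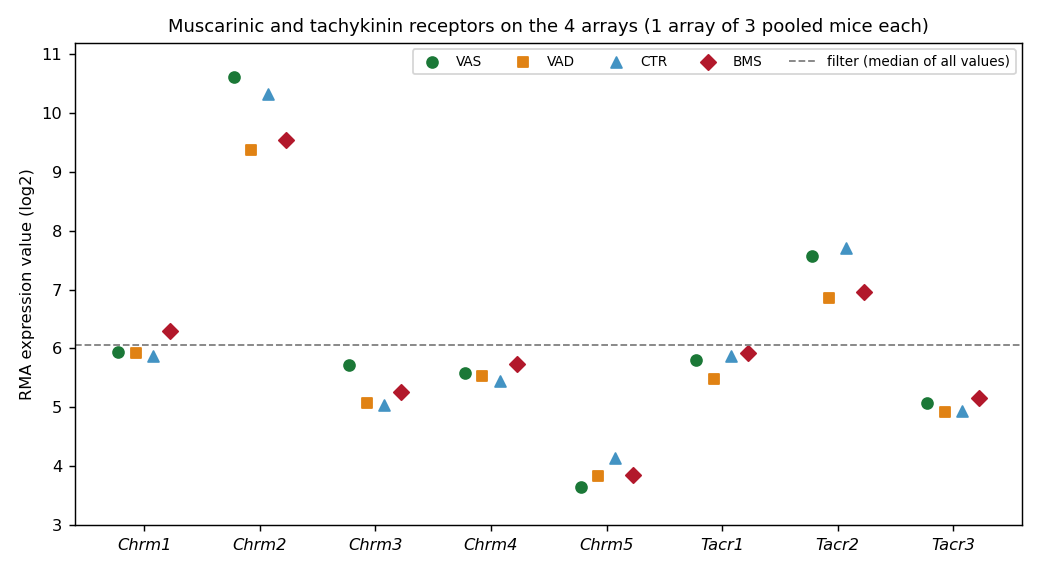
RMA expression values (log2, vertical axis) of the 8 receptors on each array, 1 symbol per array of 3 pooled mice, with the filter at 6.05 as a dashed line. Chrm2 and Tacr2 lie above the line on all 4 arrays with VAD and BMS below VAS and CTR, while Chrm1 crosses it on BMS only and the other 5 lie below it.

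A fit that takes VAD and BMS together against VAS and CTR is the comparison with more than 1 array on a side. With the experiment as a block it gave a mean difference of -1.01 ± 0.17 (SE) for Chrm2, a 2.02-fold lower value, and -0.73 ± 0.13 for Tacr2, a 1.66-fold lower value. Neither passed: limma's unadjusted p was 0.00195 for Chrm2 and 0.00261 for Tacr2, and both had a Benjamini-Hochberg adjusted p of 1 over 12395 genes. They were 9th and 16th by unadjusted p among all genes. In this limma fit 0 genes (0.0%) passed at an adjusted p under 0.05, and 476 (3.84%) had an unadjusted p under 0.05, of which 264 (2.13%) were lower. The fit leaves 1 residual degree of freedom per gene. An exact permutation of 2 against 2 arrays cannot go below 0.333 (two-sided), so no such test is given.

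Counted without the filter, 1 of the 8 receptors was at least 2-fold lower in VAD minus VAS, where 0.397% of the 23185 named genes were, and 0 were 2-fold higher, where 0.22% were. At 1.5-fold, Chrm2, Tacr2 and Chrm3 were lower, 3 of 8 beside 2.14% of all genes, and 0 were higher, beside 1.29%. In BMS minus CTR, 0 of the 8 were 2-fold lower (0.289% of all genes) or 2-fold higher (0.664%), and Chrm2 and Tacr2 were 1.5-fold lower, 2 of 8 beside 1.74%, with 0 higher beside 2.18%. Between the controls, CTR minus VAS, 0 of the 8 were 2-fold lower (1.16% of all named genes) or higher (0.311%), and at 1.5-fold Chrm3 was lower, 1 of 8 beside 4.33%, and 0 were higher, beside 2.16%. Of the genes past the filter, 1.71% were 2-fold and 5.87% were 1.5-fold lower in that difference, and 0.323% and 2.66% higher. The stricter count takes genes whose VAD and BMS values both lay at least 1.5-fold below both VAS and CTR. It held 2 of the 8 receptors and 17 of all named genes (0.0733%), or 8 of the genes past the filter (0.0645%). In the opposite direction it held 0 of the 8 receptors and 0.0259% of all named genes, or 0.0403% of those past the filter. By the gap between the higher of VAD and BMS and the lower of VAS and CTR, Chrm2 was 2nd and Tacr2 6th of the 12395, with gaps of 0.78 and 0.62. That count was set after the values were seen and carries no test.

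**Figure D2:**
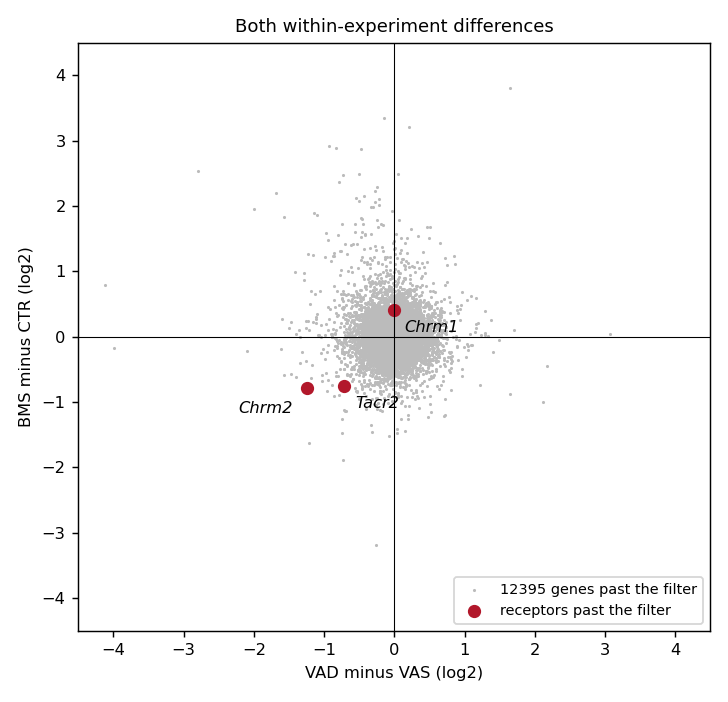
Difference of log2 values of each gene past the filter in the diet experiment (VAD minus VAS, horizontal axis) and in the antagonist experiment (BMS minus CTR, vertical axis), with the receptors past the filter in red. Chrm2 at -1.25 and -0.78 and Tacr2 at -0.72 and -0.75 lie in the lower left, apart from the bulk of the 12395 genes, and Chrm1 lies within it.

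Chrm3 (Entrez gene 12671), the Gq-coupled receptor that chiefly drives cholinergic contraction, stood at 5.72 in VAS, 5.07 in VAD, 5.04 in CTR and 5.27 in BMS. VAS alone was high. VAD minus VAS was -0.65 and CTR minus VAS -0.69, while BMS minus CTR was 0.23. Against CTR in place of VAS the VAD difference was 0.039, so its direction turned with the control. All 4 values lay below the array median, and whether they exceed background is unknown without scanner intensities.

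Chrm1 (Entrez gene 12669), the M1 receptor known from brain and ganglia, stood at 5.93, 5.92, 5.88 and 6.29 in VAS, VAD, CTR and BMS. VAD and CTR differed from VAS by -0.01 and -0.05, and BMS alone was high, 0.41 above CTR. It passed the filter through BMS alone, so that difference was favoured by the filter and carries no test here. Chrm4 (Entrez gene 12672), the second Gi-coupled subtype beside M2, stood at 5.59, 5.53, 5.45 and 5.74. It was also highest in BMS, 0.28 above CTR, with a range over the 4 arrays of 0.28. Chrm5 (Entrez gene 213788), a subtype known from midbrain, stood at 3.65, 3.83, 4.14 and 3.85. Its control arrays were the furthest apart of its values, with CTR 0.50 above VAS and both other arrays between them. None of these 3 separated VAD and BMS from the control arrays.

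Among the tachykinin receptors below the filter, Tacr1 (Entrez gene 21336), the substance P receptor, stood at 5.81 in VAS, 5.49 in VAD, 5.88 in CTR and 5.93 in BMS. VAD alone was low, with VAD minus VAS at -0.32 and BMS minus CTR at 0.05. Tacr3 (Entrez gene 21338), the neurokinin B receptor, stood at 5.08, 4.92, 4.93 and 5.16, a range of 0.24 and the narrowest of the 8. The control arrays overlapped with VAD and BMS for both genes. Of the 8 receptors, Chrm2 and Tacr2 had the same sign in both experiments and the other 6 had opposite signs, a difference between experiments that was not tested. The diet difference of Chrm1 turned positive under each of 3 other normalizations, from 0.0073 to 0.027.

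**Figure D3:**
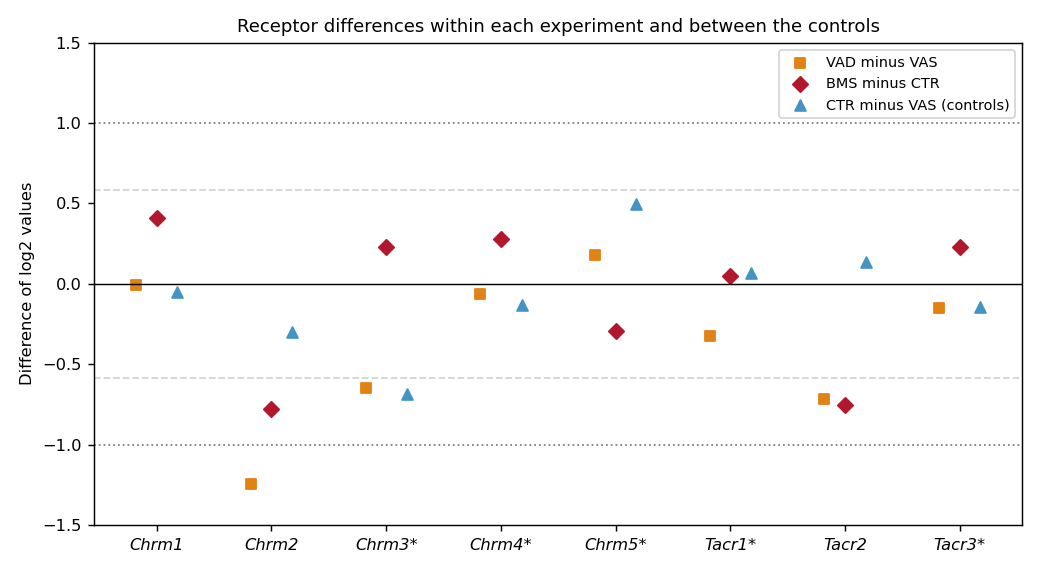
Differences of log2 values of the 8 receptors in VAD minus VAS, BMS minus CTR and CTR minus VAS, with dotted lines at 2-fold, dashed lines at 1.5-fold and an asterisk on genes below the filter on all 4 arrays. Chrm2 and Tacr2 are 1.5-fold lower in both experiments with smaller control differences of -0.30 and 0.14, while Chrm3 in VAD, at -0.65, lies beside its control difference of -0.69.

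The genes whose 4 values, centred on their own mean, lay nearest to those of Chrm2 were Mss51 with a Euclidean distance of 0.24, Eef1a1 with 0.30, Sbspon with 0.32, Zfp811 with 0.33 and Tacr2 with 0.42, over 4 arrays and leaving out provisional names. Mss51 stood at 7.56, 6.62, 7.28 and 6.63 in VAS, VAD, CTR and BMS, and Sbspon at 8.37, 7.54, 8.15 and 7.55. With provisional names included, Tacr2 was the 6th nearest of all genes to Chrm2. Nearest to Tacr2 were Slc35g2 with 0.13, Cd46 with 0.20, Zfp551 with 0.22, Sbspon with 0.26 and Sncaip with 0.26. Chrm2, whose diet difference is larger, was the 106th nearest gene to Tacr2. Eef1a1 and Zfp811 passed the filter through VAS alone, and Zfp551 and Sncaip through CTR alone. Their place among the nearest genes was therefore favoured by the filter. Likeness over 4 arrays describes these arrays and no more.

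The acetylcholine side was represented by 8 measured genes of synthesis, transport and breakdown, 4 of them past the filter. Chat, which makes acetylcholine, stood between 4.82 and 5.17, and its transporters Slc18a3 and Slc5a7 were likewise below the filter on all arrays. Ache, the acetylcholinesterase, stood at 6.45, 6.40, 7.25 and 6.70 in VAS, VAD, CTR and BMS, so CTR stood apart and BMS minus CTR was -0.55. Bche, the butyrylcholinesterase, stood at 6.92, 6.73, 6.19 and 7.03, and BMS minus CTR was 0.84, with CTR 0.73 below VAS as the low array. The anchoring subunits Colq and Prima1 differed by -0.07 and -0.31 in VAD and by 0.18 and 0.28 in BMS. In VAD minus VAS, 0 of the 4 were 1.5-fold apart (2.11% of all genes past the filter were lower and 1.45% higher). In BMS minus CTR 1 was higher, where 3.11% of all genes were.

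Of 7 tachykinin precursor and peptidase genes, 4 were past the filter. Tac1, the precursor of substance P and neurokinin A, stood at 5.80, 5.46, 5.36 and 6.42, and passed through BMS alone, where it was 1.06 above CTR. Mme, the peptidase neprilysin that degrades tachykinins, stood at 7.33, 7.17, 6.24 and 7.55. Its BMS value was 1.31 above CTR but 0.21 above VAS, since CTR was 1.10 below VAS. Ace, which also cleaves substance P, stood at 10.09, 10.58, 10.57 and 10.67, with VAS the low array. Ece1 differed by 0.22 and -0.12. Tac2 and Tac4, precursors of neurokinin B and hemokinin, were below the filter on all arrays. Tac1 and Mme were the members 2-fold apart, both in BMS minus CTR, where 1.07% of all genes past the filter were 2-fold higher. Tac1 was favoured by the filter and Mme had CTR as its low array, so their count is not read against that share. In VAD minus VAS 0 were 2-fold higher (0.234% of all genes).

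Nicotinic receptor subunits, the ion channel receptors of acetylcholine, were mostly below the filter, with 2 of 16 past it. Chrna7 stood between 6.58 and 6.78. Chrnb1 stood at 5.69, 6.34, 5.43 and 5.98 in VAS, VAD, CTR and BMS, with differences of 0.66 and 0.55. It passed the filter through VAD alone, so its being high there was favoured by the filter.

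The Gq, phospholipase C and store calcium list had 18 measured genes, 11 of them past the filter. Of these, 0 were 1.5-fold apart in either experiment, where 2.11% of all genes past the filter were lower and 1.45% higher in VAD minus VAS, and 1.89% lower and 3.11% higher in BMS minus CTR, so with 11 genes a count of 0 is near the background. The medians were 0.12 in VAD minus VAS and -0.15 in BMS minus CTR, beside 0.01 and 0.01 over all genes past the filter. Plcb1, a phospholipase C that Gq activates, differed by -0.10 and -0.46, and the receptor-operated cation channel gene Trpc6 by -0.28 and -0.33. Prkca, a protein kinase C, was higher by 0.29 and 0.30, and Gna11, a Gq-class alpha subunit, by 0.22 and 0.20. The controls were further apart than that for Gna11 and Trpc6, with CTR minus VAS at 0.28 and 0.565. VAD lay below CTR for Gna11, and BMS lay above VAS for Trpc6.

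The Gi and adenylyl cyclase list, on the M2 side, had 16 of 23 measured genes past the filter and medians of -0.01 in VAD minus VAS and 0.01 in BMS minus CTR. The Gi subunit genes Gnai1, Gnai2 and Gnai3 differed by -0.03, 0.21 and -0.06 in VAD and by -0.05, 0.10 and 0.32 in BMS. Gnb5 was the member past the filter that was 1.5-fold apart, at -0.64 in VAD minus VAS and 0.13 in BMS minus CTR. Gnb3, below the filter on all arrays, was 1.5-fold lower in both experiments, at -0.59 and -0.64. The cyclase gene Adcy2 differed by 0.49 and -0.36, Adcy4 by 0.26 and -0.19, and the Gi-class gene Gnaz by 0.28 and 0.29. The GIRK channel genes Kcnj3, Kcnj5, Kcnj6 and Kcnj9 were below the filter on all arrays.

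Among receptor kinases, arrestins and RGS proteins, which shut off receptors and their G proteins, 11 measured genes were past the filter, with medians of -0.13 and -0.09. Grk3 was 1.5-fold lower in VAD minus VAS at -0.66 and differed by 0.26 in BMS minus CTR. Rgs4 stood at 7.89, 7.66, 8.02 and 7.47, with differences of -0.23 and -0.55, and VAD and BMS were both below VAS and CTR. That was so for 4 of the 11 (11.6% of all genes past the filter), none of them by 1.5-fold. Grk5 differed by 0.36 and -0.18 and Arrb1 by 0.35 and 0.16.

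Of other receptors of airway contraction, 16 were past the filter, with medians of 0.02 and -0.02. Of these, 0 had VAD and BMS both 1.5-fold below VAS and CTR, near the 0.0645% of all genes past the filter. In VAD minus VAS, 5 were 1.5-fold lower (2.11% of all genes) and 0 higher (1.45%). In BMS minus CTR, 0 were lower (1.89%) and 5 higher (3.11%). Of those 5, P2ry1, Avpr1a and Adra1b passed the filter through BMS alone, so the count was fixed in part by the filter. Ednrb, an endothelin receptor, was nearest to the Chrm2 order, at 10.38, 9.78, 10.16 and 9.87, with differences of -0.60 and -0.30 and a gap of 0.30. The prostanoid receptors Ptger3 and Ptgfr differed by -0.78 and -0.67 in VAD minus VAS and by 1.32 and 0.83 in BMS minus CTR. The vasopressin receptor gene Avpr1a and the purinergic receptor genes P2ry1 and P2ry6 differed by 0.09, 0.06 and 0.49 in VAD and by 1.14, 1.00 and -0.39 in BMS.

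**Figure D4:**
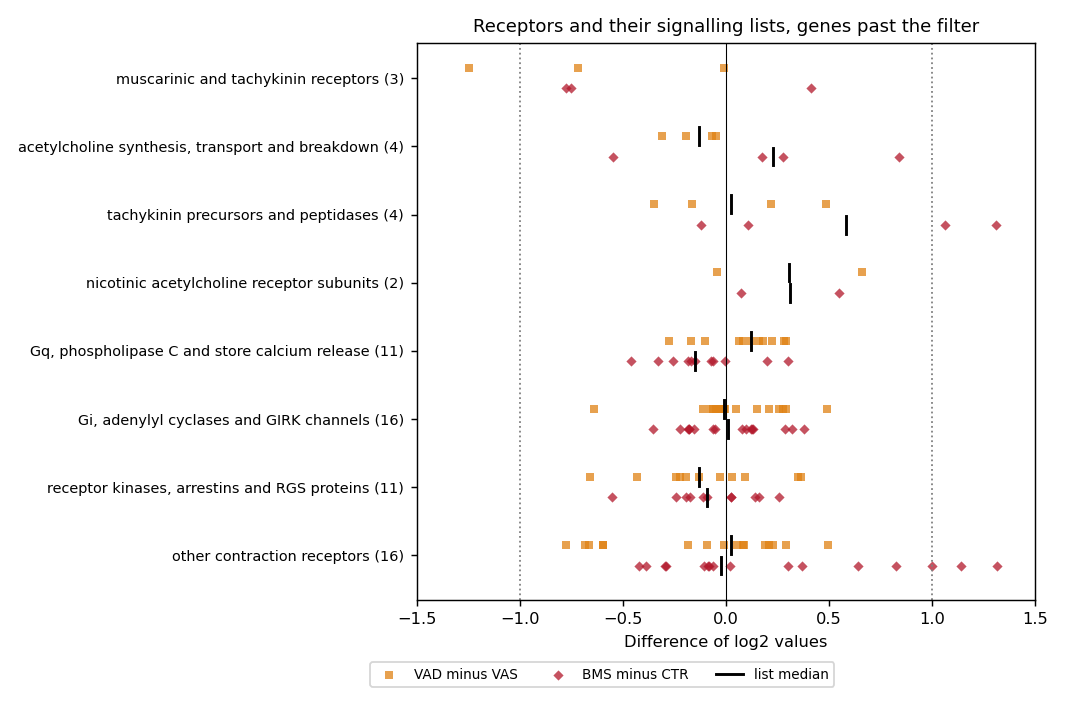
Differences of log2 values in VAD minus VAS (squares) and BMS minus CTR (diamonds) for each gene past the filter, by list, with the number of genes in brackets, black bars at the medians of the signalling lists and dotted lines at 2-fold. Chrm2 and Tacr2 lie left of the Gq, phospholipase C, Gi and adenylyl cyclase genes in both experiments, and those lists lie within 1.5-fold apart from Gnb5.

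Smooth muscle markers were higher in VAD, where Chrm2 and Tacr2 were lower, and lower in BMS, where both receptors were lower too. Their median was 0.16 in VAD minus VAS, with 10 of 11 above 0, and -0.16 in BMS minus CTR, with 0 of 11 above 0. The log2 of their summed linear values was 14.87, 15.05, 14.90 and 14.77 in VAS, VAD, CTR and BMS. Taken relative to that median, Chrm2 was lower by 1.40 in VAD and by 0.61 in BMS on the log2 scale, and Tacr2 by 0.87 and 0.59. Myh11, the smooth muscle myosin gene, differed by 0.32 and -0.16. The part of muscle RNA in the receptor differences was not tested.

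Cells that carry M2 receptors outside airway muscle include cardiac myocytes, which sheathe pulmonary veins, and nerves. Of 11 cardiac markers 4 were past the filter, and Myh6, Myl7, Myl4, Nppa and Sln were below it on all arrays. Tnnt2, cardiac troponin T, stood at 10.36, 9.59, 9.45 and 8.96, with differences of -0.77 and -0.49. CTR lay below VAD for this gene. All 4 cardiac markers past the filter were lower in both experiments, with medians of -0.14 and -0.19. Those below the filter were mixed. Myh6, Myl4, Nppa and Csrp3 were higher in both experiments, Myl7 was lower in both, and Mybpc3 and Sln had opposite signs. The summed level of the cardiac markers was 12.94, 12.81, 12.49 and 12.25, led by Actc1 at 12.58, 12.56, 12.19 and 11.97. Of 9 neuron markers 4 were past the filter, Tubb3 on BMS alone, and Elavl4 was below it on all arrays, between 4.21 and 4.34. The summed neuron level was 9.30, 9.12, 9.16 and 9.01, so VAD lay only just below CTR. Of the 4 neuron markers past the filter, Syt1 alone had VAD and BMS both below VAS and CTR, by 0.03. Uchl1 stood at 7.30, 6.66, 6.16 and 6.31, with CTR the low array. Syt1 differed by -0.98 in BMS minus CTR and -0.03 in VAD minus VAS. Of 5 Schwann cell markers S100b was past the filter, and Sox10 was below it on all arrays. The part of cardiac and nerve RNA in the Chrm2 and Tacr2 differences was not tested.

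Other marker lists stood in other orders. The summed fibroblast level was 14.33, 14.24, 14.23 and 14.55. Over its 12 markers the medians were -0.06 in VAD minus VAS and 0.29 in BMS minus CTR, with 5 and 12 above 0. Among them, Pdgfra differed by 0.42 and 1.07, Col1a1 by 0.36 and 0.41, Pi16 by -0.11 and 1.21 and Scara5 by -0.02 and 1.44. The pericyte and vascular muscle level was 12.71, 12.93, 13.21 and 12.97, and Cspg4 and Pdgfrb were past the filter on all arrays. The endothelial level was 10.27, 10.40, 10.21 and 10.62, with Pecam1 and Cdh5 past the filter. The epithelial level was 11.29, 10.25, 9.48 and 10.09, led by Sftpc at 10.86, 9.28, 7.32 and 9.15, while Epcam and Cdh1 were below the filter. The leukocyte level was 10.68, 10.87, 10.31 and 10.03, with Ptprc at 7.47, 7.39, 5.97 and 6.21. Their part in the receptor differences was not tested.

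**Figure D5:**
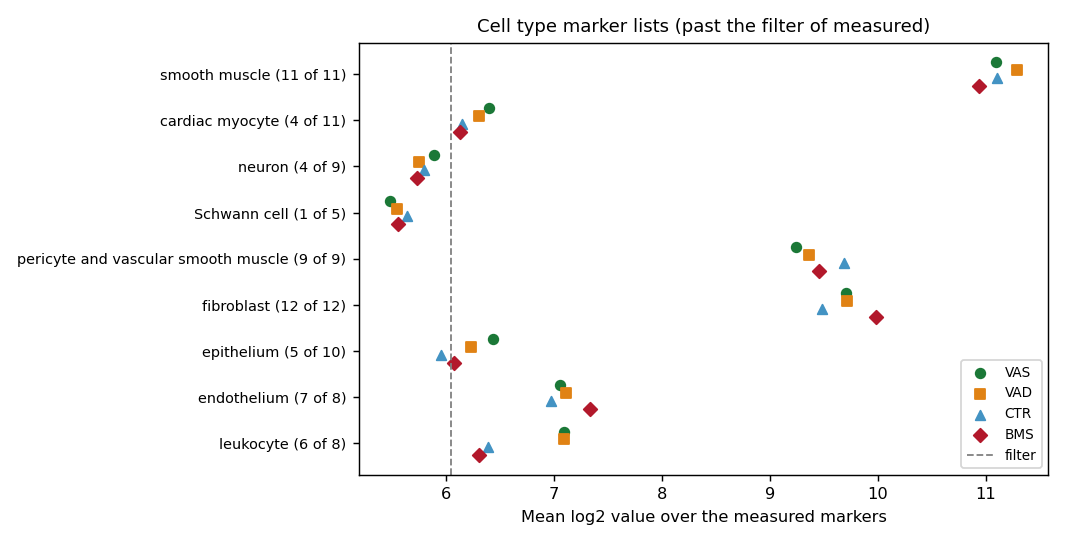
Mean log2 value over the measured markers of each cell type list on each array (horizontal axis), with the number past the filter of those measured in brackets and the filter as a dashed line. Smooth muscle markers are highest in VAD and lowest in BMS, and neuron and Schwann cell markers lie below 6.05 on average on all arrays.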

How the data were processed

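Total RNA of the sorted green, not red, cells was measured on 4 Affymetrix arrays, each of pooled cells of 3 mice. The authors deposited log2 expression values from RMA, with affy 1.36.1 and R 2.15.1 named in the submitters' processing notes. RMA gives arrays like distributions, which hides a change common to most genes. The sources used here do not say which arrays were normalized together. Precision is limited by having 4 arrays, and detection above background is unknown. Of 25206 probe sets, each with an Entrez number as its ID, 23185 had 1 gene symbol in GEO's platform annotation, 0 had several and 2021 had none and were not used. All 23185 matched the RefSeq gene table of GRCm38.p6 by Entrez number.

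Differences are of 2 log2 values. The joint test was limma 3.58.1 (lmFit, eBayes) in R 4.3.3, with experiment as a block and Benjamini-Hochberg adjustment over 12395 genes past the filter. The joint fit was tested on simulated data with independent noise and no gap between the experiments, unlike these arrays. There the median fitted effect was checked against the planted one. The ranks, nearest patterns and motif search were not tested in that way. Figures and counts used Python 3.11.15, pandas 2.3.3, numpy 2.4.6 and matplotlib 3.10.9. The receptors, the 8 signalling lists and the 9 cell type lists were chosen with earlier results of these data known. Some list genes have no named probe set here and were not analysed, and 1 of the signalling lists is not reported here. Named beside the receptors were list members 2-fold apart in either experiment and up to 4 more by mean absolute difference, the first 2 markers of each cell list, and the 5 nearest patterns of Chrm2 and Tacr2. Other genes named, such as Gnai1, Chat, Kcnj3, Adra1b, Tnnt2 and Syt1, were chosen after their values were seen. An alternative counted as unchanged when a difference kept its sign and moved by under 0.1 or under 1.5 times, since there is no replicate spread. Promoter windows were the 250 bases before each listed start, and 7 of the 8 receptors had one.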

Additional observations from a re-analysis of the deposited data

Results flagged for a closer look

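The results below had opposite signs in the 2 experiments, given as BMS minus CTR less VAD minus VAS. With 1 array per group a sign carries no spread, and none of these differences between experiments was tested. Chrm3 had 0.88, from -0.65 in the diet and 0.23 in the antagonist experiment. Chrm1 had 0.42, Chrm4 0.34, Tacr1 0.37 and Tacr3 0.38, each negative in the diet and positive in the antagonist experiment. The Chrm1 diet difference was -0.01 and turned positive under each of 3 other normalizations. Chrm5 had -0.48, positive in the diet experiment and negative in the other. Of the other genes named, those 1.5-fold apart in opposite ways were Ptger3 with 2.09, Ptgfr with 1.49, the surfactant gene Sftpc with 3.40 and the endothelial receptor gene Tek with 2.01. In all 4, CTR was at least 0.59 below VAS.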

How the results depend on the processing

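Chrm2 and Tacr2 kept their sign in both experiments, within 1.5 times of the reported difference, under quantile normalization again, cyclic loess, median centring, either control swapped or both averaged, and relative to smooth muscle markers, the last chosen after seeing the data. Leaving out each array in turn, without the block, the joint effect ran from -1.16 to -0.86 for Chrm2 and from -0.80 to -0.67 for Tacr2, and 0 genes passed at an adjusted p under 0.05 in any of these fits or without the block, with trended or robust eBayes, under either other filter or any of the 3 normalizations. Genes with an unadjusted p under 0.05 numbered 476, and 231 without the block, 938 with no filter, 216 with the 75th percentile filter and 171 to 568 leaving out an array. Chrm3 in VAD was 0.039 against CTR. Genes 2-fold lower and higher numbered 52 and 29 in VAD minus VAS, 35 and 133 in BMS minus CTR and 212 and 40 in CTR minus VAS. At 1.5-fold they numbered 262 and 180, 234 and 386, and 728 and 330. At 3-fold they numbered 8 and 6, 3 and 43, and 58 and 8. With the filter at the 75th percentile they numbered 34 and 17, 14 and 80, and 114 and 23. With no filter VAD gave 92 and 51, BMS 67 lower and the controls 72 higher. Against the other control VAD gave 174 higher, and BMS 181 lower and 70 higher. Against the mean of both controls VAD gave 28 and 49, and BMS 69 higher. The labels give no replicate numbers, and pairing rests on the experiment, which is the block of the joint fit: without that block limma's unadjusted p was 0.00147 for Chrm2 and 0.00283 for Tacr2, both with an adjusted p of 1. A probe set below the filter may not exceed background, which limits 5 of the receptors.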

Other observations

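The genes past the filter with VAD and BMS both at least 1.5-fold below VAS and CTR were, beside Chrm2 and Tacr2, Mir505, Mir99a, Mss51, Sbspon and the provisional names 9030025P20Rik and AW549542. Mir99a, a microRNA gene, stood at 8.50, 7.47, 8.19 and 7.51 in VAS, VAD, CTR and BMS. AW549542 stood at 8.13, 6.56, 8.04 and 7.45. The 5 genes that stood 1.5-fold above in the same way were Il17b, Gm9292, Pdpn, Gas7 and Npas2. Mir505 passed the filter through CTR alone and Gm9292 through BMS alone, so their places in these lists were favoured by the filter. All were named after their values were seen.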
